A study of Mus musculus with 7 samples.

Results

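The genes described here are 30 genes of cholesterol supply, named in a fixed list: 17 enzymes that build cholesterol or its side products, 5 genes that control the sterol regulatory element binding proteins (SREBPs), and 8 genes of sterol transport and of the liver X receptors (LXRs). The list groups them by function. Of the 30 genes, 29 had a probe, among 37074 gene names on the array, and Acat2 had none under that name. Their 57 probes included 53 that could be tested, that is, whose gland signal stood well above background throughout at least 1 genotype. At least 1 such probe was found for 28 genes, and for each of the 28 the brightest probe was well above background in both channels on all 7 arrays. Expression was measured in mammary glands of nulliparous FVB mice aged 20 to 25 weeks and killed at diestrus, in 3 wild-type animals, whose glands were labeled normal, and 4 PRA transgenic animals, whose glands were labeled preneoplastic. PRA is the shorter of the isoforms of the progesterone receptor. The PRA transgenic animals were bigenic, carrying a GAL-4 transactivator under a CMV promoter and the A isoform of the receptor under GAL-4 binding sites, so that extra PRA was not limited by the promoter to mammary epithelium. Each array held RNA of 1 animal, taken from 1 abdominal gland after its lymph nodes had been cut out.

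Cells make cholesterol from acetyl-CoA through mevalonate, farnesyl diphosphate, squalene and lanosterol. The rate of synthesis is matched to supply by SREBP-2 and, with a greater part in fatty acid synthesis, SREBP-1. These transcription factors are held in the endoplasmic reticulum by Scap and the Insig proteins while sterols are plentiful, and are carried to the Golgi and cut loose when sterols run low. The LXRs are activated by oxysterols and switch on genes that export cholesterol. The mammary gland of a virgin animal is mostly fat, in which ducts are embedded, and both adipocytes and secretory epithelium are known for lipid synthesis.

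All values below are log2 ratios of the gland RNA, labeled with Cy5, to a reference pool of RNA from 11 mouse cell lines, labeled with Cy3, so that 0 means the same signal from gland and reference. Ratios of different probes cannot be set against each other as levels. Saturation was seen at no spot, and precision is limited by how few arrays there are. Fewer probes were well above background on the PRA transgenic arrays, with no overlap between genotypes. In Cy5 their share ran from 62.7% to 66.2% on wild-type and from 56.7% to 60.2% on PRA transgenic arrays. In the reference channel, which held the same RNA throughout, it ran from 53.2% to 54.0% and from 47.2% to 50.6%, and the part of this difference in the results was not tested. The 7 arrays shared 1 slide on which row 1 held wild-type RNA and row 2 held PRA transgenic RNA; row and genotype therefore cannot be told apart. The gland RNA is a mixture of cell types, and fewer cells of a type and less RNA per cell cannot be told apart. Defining markers of white adipocytes and of luminal and basal epithelium all passed the same filter. Pgr, the gene of the progesterone receptor, averaged 5.13 ± 1.67 (SD, n = 3) among wild-type animals and 4.48 ± 0.86 (SD, n = 4) among PRA transgenic animals on the log2 ratio scale. Its log2 fold change of -0.65 (standard error 0.80, limma adjusted p = 0.859) did not set the genotypes apart, and whether its probes detect the transgene is not known. For the enzymes of cholesterol synthesis the mean of 1 library, PRA transgenic replicate 4, lay below that of all other arrays, and values are therefore given with this library and without it. It was singled out after its values had been seen, so that counts made without it describe the remaining arrays and support nothing further.

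The promoters of the genes are shown first, since the members of a pathway that follows SREBP may share elements near their starts. From RefSeq promoters on GRCm38.p6, 300 bases long with 250 before the start, 24 of the 30 genes were matched. These were searched on both strands for the core of a sterol regulatory element, TCACNCCAC, for the CCAAT box, the site of NF-Y, and for the GC box GGGCGG, a site of Sp1. None of the 3 motifs lies within another. A CCAAT box lay in a promoter of 13 of 14 synthesis enzymes (92.9%), 4 of 5 SREBP control genes and 2 of 5 genes of transport and LXR, against 41.1% of 27025 genes. A GC box lay in 12 of the 14 enzymes (85.7%), all 5 control genes and 2 of the 5 transport genes, against 38.2% of all genes. The core of the sterol element was found in 1 of the 24 genes, Hmgcs1, and in 1.44% of all genes. These are shares of genes with a match in any of their promoters (33 promoters for the 24 genes and 32851 for all genes). A match of letters is not a bound site. The shares over all genes show that CCAAT and GC boxes are not particular to SREBP targets. Nor does the lack of a match to this 1 form, within 300 bases, show that a gene has no sterol element. The synthesis enzymes Sqle, Fdps and Fdft1 had no promoter to search. Stretches of 4 promoters follow, with each sterol element core and each CCAAT box, read on either strand, in capitals. Hmgcs1 is shown as the only one with a match to the core, Mvd and Cyp51 as enzymes without a match, and Insig1 as the gene with the largest log2 fold change.
Hmgcs1 (chr13:119690170-119690319 of GRCm38.p6, plus strand, from 181 to 32 bases before the start): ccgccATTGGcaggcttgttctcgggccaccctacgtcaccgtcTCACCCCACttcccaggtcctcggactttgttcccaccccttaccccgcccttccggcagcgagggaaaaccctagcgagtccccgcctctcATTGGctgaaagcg
Mvd (chr8:122443423-122443572 of GRCm38.p6, minus strand, from 150 to 1 bases before the start): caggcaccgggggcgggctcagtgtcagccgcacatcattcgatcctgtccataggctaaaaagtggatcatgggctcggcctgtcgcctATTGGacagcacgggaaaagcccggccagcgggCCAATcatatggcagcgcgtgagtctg
Cyp51 (chr5:4104698-4104847 of GRCm38.p6, minus strand, from 150 to 1 bases before the start): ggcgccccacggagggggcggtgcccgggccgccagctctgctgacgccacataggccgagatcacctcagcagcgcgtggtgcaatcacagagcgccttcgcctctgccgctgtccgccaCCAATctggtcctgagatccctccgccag
Insig1 (chr5:28071191-28071340 of GRCm38.p6, plus strand, from 221 to 72 bases before the start): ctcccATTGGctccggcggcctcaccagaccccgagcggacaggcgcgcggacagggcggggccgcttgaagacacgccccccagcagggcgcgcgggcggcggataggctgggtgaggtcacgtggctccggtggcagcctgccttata
In Hmgcs1 the core lay 137 bases before the start, between CCAAT boxes at 176 and 45 bases. Mvd had CCAAT boxes at 60 and 27 bases, and Cyp51 had 1 at 29 bases. Insig1 had 1 CCAAT box, at 216 bases.

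Of the 28 genes tested, 23 had a higher mean in PRA transgenic than in wild-type glands and 5 a lower one. Over all 34288 probes tested, 54.2% were higher. The median log2 fold change of the 28 genes was 0.17, against 0.02 over all probes. By group it was 0.18 for 16 synthesis enzymes, 0.12 for 5 SREBP control genes and 0.06 for 7 genes of transport and LXR. No gene passed an adjusted p under 0.05 in limma, where 4 of all probes did (0.0117%), and the lowest adjusted p among the genes was 0.463. At an unadjusted p under 0.05 there were 2 genes, Insig1 and Srebf1, both higher in PRA transgenic glands and both by at least 1.5-fold. Among all probes 4.54% were higher and 4.48% lower at that p, and 1.94% were higher and 2.59% lower with the 1.5-fold limit added. For 1 gene, Srebf2, the genotypes did not overlap, with PRA transgenic glands higher, which held for 5.41% of all probes. For no gene did they lie apart in the opposite direction, which held for 4.51% of all probes. The share of genes higher was therefore above that of all probes, while the counts at each threshold were small.

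**Figure D1:**
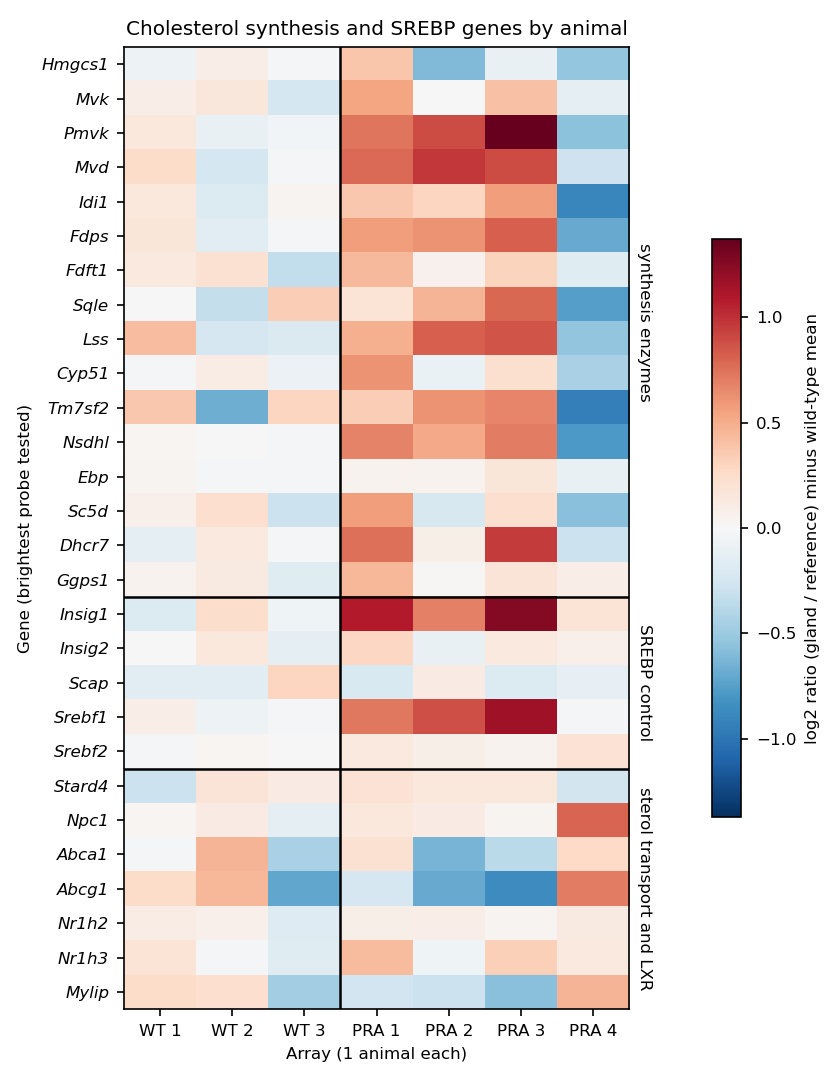
Log2 ratio of each of the 28 genes on each array minus the mean of the 3 wild-type arrays, as colour (red higher, blue lower), with genes in rows by role and arrays in columns. Most synthesis enzymes were red in PRA transgenic replicates 1 to 3 and blue in replicate 4.

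Insig1 encodes an endoplasmic reticulum protein that holds back SREBP, and is itself an SREBP target. Its log2 ratio, from a probe at chr5:28404246-28404305 of mm9, was 0.94, 1.36 and 1.06 in wild-type replicates 1 to 3. It was 2.20, 1.81, 2.38 and 1.30 in PRA transgenic replicates 1 to 4. PRA transgenic replicates 1 to 3 lay above all wild-type arrays, and replicate 4 lay below wild-type replicate 2, so that the genotypes overlapped. The log2 fold change was 0.80 (standard error 0.27, 95% interval 0.17 to 1.44), a 1.74-fold difference with an unadjusted limma p of 0.020 and an adjusted p of 0.463. Cy5 alone, scaled to its 75th percentile, gave 0.87, and the reference channel gave 0.07.

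Srebf1 encodes SREBP-1. Its probe at chr11:60013214-60013273 of mm9 gave log2 ratios of 1.86, 1.69 and 1.75 in wild-type glands and 2.49, 2.65, 2.93 and 1.75 in PRA transgenic glands. The wild-type arrays lay close together and PRA transgenic replicate 4 fell among them, while the other PRA transgenic arrays were above all of them. The log2 fold change was 0.69 (standard error 0.27, 95% interval 0.06 to 1.32), or 1.61-fold, with an unadjusted limma p of 0.036 and an adjusted p of 0.518. It no longer passed the unadjusted threshold when any 1 of the arrays other than PRA transgenic replicate 4 was left out, with p from 0.063 to 0.091. Insig1 no longer passed it without wild-type replicate 1 or without wild-type replicate 3, which gave log2 fold changes of 0.71 and 0.77.

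Srebf2, which encodes SREBP-2, the main activator of the cholesterol enzymes, showed a small shift. Its log2 ratio was -0.75, -0.72 and -0.75 in wild-type glands, and -0.61, -0.66, -0.69 and -0.54 in PRA transgenic glands. The groups did not overlap, and unlike for the enzymes PRA transgenic replicate 4 was the highest array. The genotypes differed by 0.12 on the log2 scale (standard error 0.10, adjusted p = 0.787), and the 95% interval of -0.13 to 0.36 held 0. The methods' unpaired test, which does not share the spread over probes, put Srebf2 past the unadjusted threshold, unlike limma. Among the other control genes, the log2 fold change was 0.10 ± 0.14 (standard error) for Insig2, a relative of Insig1, and -0.10 ± 0.16 for Scap, the escort of SREBP.

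**Figure D2:**
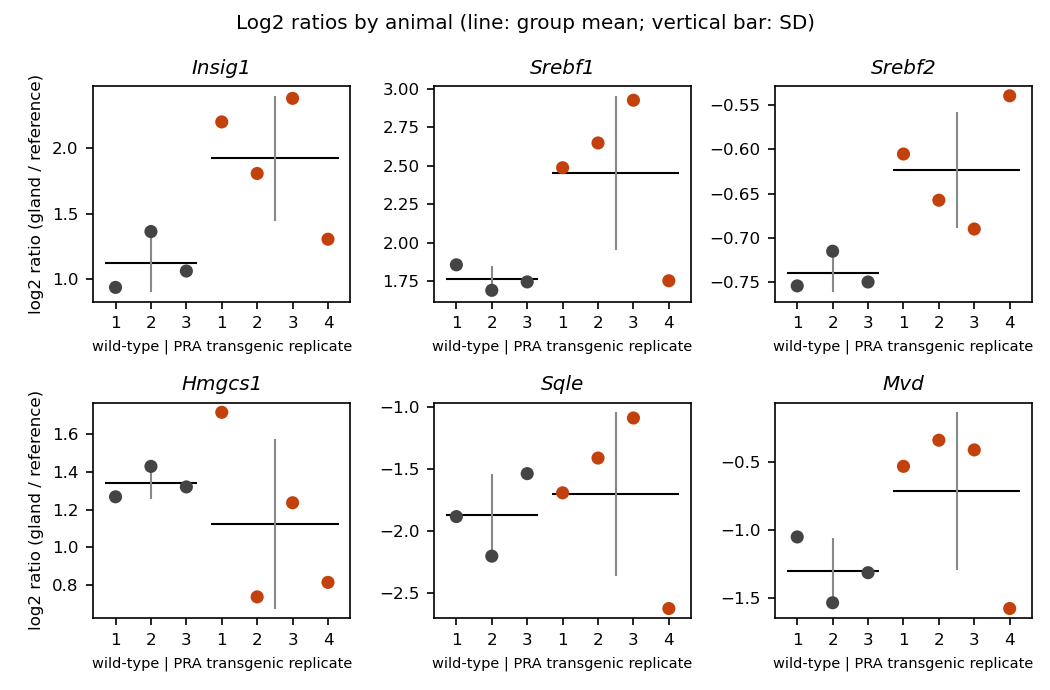
Log2 ratios of 6 genes by animal, 3 wild-type (grey) and 4 PRA transgenic (orange), with a horizontal line at the group mean and a vertical bar of 1 SD on either side of it; the y axes differ. Srebf2 is the only 1 of the 6 whose genotypes do not overlap, and PRA transgenic replicate 4 is the lowest array for Sqle and Mvd.

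Of the 16 synthesis enzymes, 15 had a positive log2 fold change and none passed the unadjusted or the adjusted threshold. At the entry of the pathway, Hmgcs1, which makes HMG-CoA, was the exception. Its log2 ratio was 1.27, 1.43 and 1.32 in wild-type and 1.72, 0.73, 1.24 and 0.81 in PRA transgenic glands. PRA transgenic arrays lay on both sides of the wild-type arrays, which gave a log2 fold change of -0.21 with a standard error of 0.25 (adjusted p = 0.844). Next come the enzymes that carry mevalonate to isopentenyl diphosphate. Here the log2 fold change was 0.20 ± 0.20 (standard error) for Mvk, 0.61 ± 0.42 for Pmvk and 0.59 ± 0.32 for Mvd, which removes the carboxyl group. These last were the largest values of the synthesis enzymes, and their unadjusted p-values were 0.193 and 0.107.

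The enzymes that join these units followed with smaller values. The log2 fold change was 0.08 for Idi1, the isomerase, 0.33 for Fdps, which makes farnesyl diphosphate, 0.16 for Fdft1, which makes squalene, and 0.19 for Ggps1, which makes geranylgeranyl diphosphate instead. Sqle, the squalene epoxidase and a rate-limiting step, had log2 ratios of -1.88, -2.20 and -1.53 in wild-type glands and -1.69, -1.41, -1.09 and -2.62 in PRA transgenic glands. Its highest arrays were PRA transgenic replicates 2 and 3 and its lowest was PRA transgenic replicate 4. Between genotypes Sqle differed by 0.17 on the log2 scale (standard error 0.37, adjusted p = 0.934). Lss, which closes the sterol ring to lanosterol, differed by 0.41 (standard error 0.37). The later enzymes that turn lanosterol into cholesterol ranged from 0.00 for Sc5d and 0.04 for Ebp, through 0.08 for Cyp51, 0.17 for Tm7sf2 and 0.28 for Nsdhl, to 0.37 for Dhcr7, the last step of one branch.

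**Figure D3:**
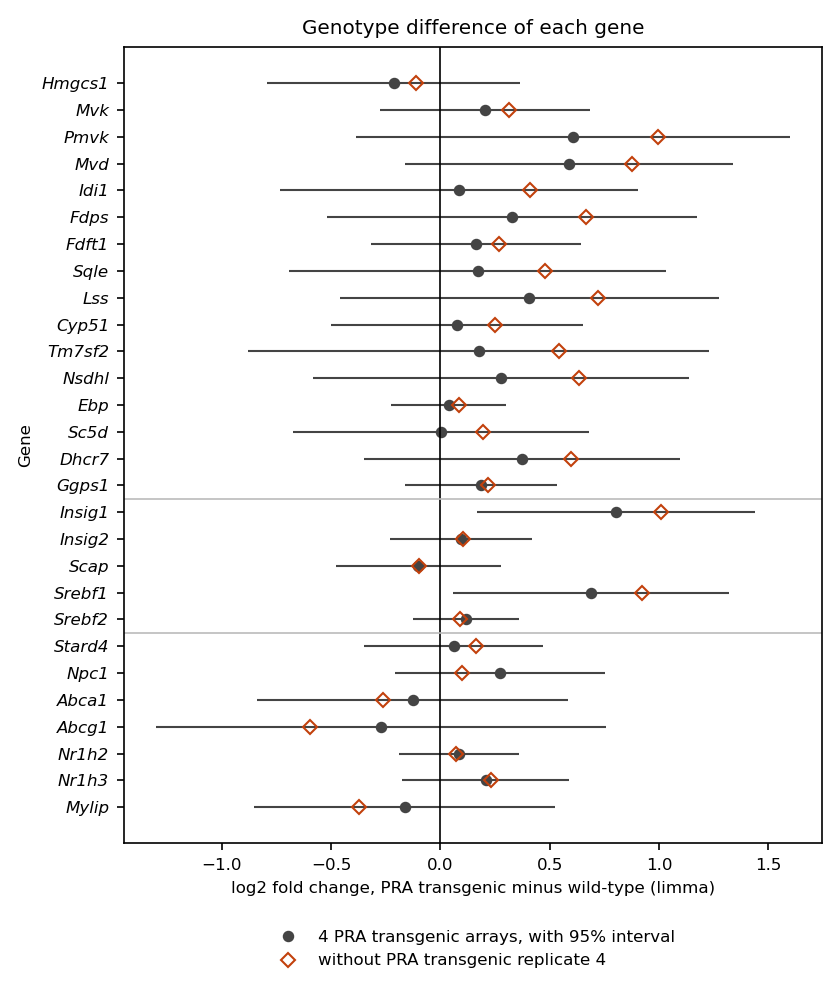
Log2 fold change of each gene, PRA transgenic minus wild-type, from limma, with its 95% interval (filled circles) and the same value without PRA transgenic replicate 4 (open diamonds); grey lines part the groups by role. Of the filled circles, the intervals of Insig1 and Srebf1 do not hold 0.

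The spread between animals was shared by the synthesis enzymes. Their mean log2 ratio was 0.17, 0.01 and 0.01 in wild-type replicates 1 to 3. In PRA transgenic replicates it was 0.56, 0.34, 0.63 and -0.41. Thus the first 3 PRA transgenic arrays lay above every wild-type array and replicate 4 below every one, and the SD was 0.48 in PRA transgenic and 0.09 in wild-type glands. In PRA transgenic replicate 4, all 16 enzymes lay below the mean of their genotype, with a median deviation of -0.77 on the log2 scale, and 12 of the 16 had their lowest value of the 7 arrays there. It was the lowest of the 7 for 15.9% of all probes. In Cy5 alone the mean of the enzymes, relative to the 75th percentile of the array, was 2.42, 2.26 and 2.29 in wild-type and 2.86, 2.63, 2.92 and 1.86 in PRA transgenic glands. In the reference channel it ran from 2.26 to 2.32 over all 7 arrays. The spread was therefore in the gland channel and not in the reference channel. With 1 array per animal and no dye swap, the gland RNA and its labeling cannot be told apart.

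Without PRA transgenic replicate 4, the median log2 fold change of the synthesis enzymes was 0.44, against 0.03 over all probes. Of the 28 genes, 8 were then higher at an unadjusted p under 0.05, as were 6.91% of all probes, and no gene was lower. They were Pmvk with a log2 fold change of 1.00 (standard error 0.20), Mvd with 0.88, Idi1 with 0.41, Fdps with 0.67, Lss with 0.72, Nsdhl with 0.63, Insig1 with 1.01 (standard error 0.20) and Srebf1 with 0.92 (standard error 0.15). In 10 genes the genotypes did not overlap, with PRA transgenic higher, as in 11.5% of all probes. Ebp and Srebf2 make up the 10, with log2 fold changes of 0.09 each. No gene passed the adjusted threshold, the lowest adjusted p being 0.205 for Srebf1, while 12 of all probes did. Hmgcs1, at -0.11, and Scap, at -0.10, kept their negative sign.

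Where a gene had several probes, they mostly pointed the same way. Of 18 genes with more than 1 tested probe, Abca1 alone had values of both signs, -0.13 for the probe that stands for it and 0.27 for a dimmer one. Of the 53 tested probes, 47 had a positive log2 fold change and 6 a negative one, and 6 were higher at an unadjusted p under 0.05, against the 4.54% of all probes given above. Besides those of Insig1 and Srebf1, they were 2 probes of Ggps1, 1 of Nsdhl and 1 of Npc1. Both Ggps1 probes, on a predicted transcript, had genotypes that did not overlap, with log2 fold changes of 0.40 (limma adjusted p = 0.453) and 0.36 (adjusted p = 0.528), while the brighter Ggps1 probe that stands for the gene gave 0.19. Its other 3 probes, 1 of them on the same predicted transcript, gave 0.10, 0.03 and 0.08 with genotypes that overlapped. The dimmer Nsdhl probe gave 1.52 (limma adjusted p = 0.513) but was well above background on 1 of 3 wild-type arrays, against all 4 PRA transgenic arrays. It therefore counts among the 6 only through the genotype where it is high. Its reference signal was well above background on none of the arrays, which limits the ratio. The Npc1 probe gave 0.72 (limma adjusted p = 0.544). For it Cy5 alone gave 0.02 and the reference -0.69, and no PRA transgenic array had a reference signal well above background.

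The genes that carry sterols or sense them had values of both signs. The log2 fold change was 0.27 ± 0.20 (standard error) for Npc1, which releases cholesterol from lysosomes, and 0.06 for Stard4, a carrier of cholesterol in the cytosol. Nr1h3 and Nr1h2, the genes of LXR-alpha and LXR-beta, had values of 0.21 and 0.08. The exporters Abca1 and Abcg1 had -0.13 and -0.27, and Mylip, a ubiquitin ligase, had -0.16. The second tested probe of Abca1 was positive, as given above. None of these had an unadjusted p under 0.05. Npc1l1, the transporter of cholesterol uptake in the intestine, had 1 probe, which was above background by this measure on none of the arrays. PRA transgenic replicate 4 was the highest of the 7 arrays for 4 of these 7 genes, against 13.2% of all probes. These were Npc1, Abcg1, Nr1h2 and Mylip. In that array the log2 ratio of Abcg1 was 1.36, where the other PRA transgenic arrays had 0.43, -0.02 and -0.20 and the wild-type arrays 0.92, 1.13 and -0.04. For Npc1 it was 0.67, and the other 6 arrays lay between -0.26 and 0.03.

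The fatty acid genes that SREBP-1 activates, a list of 17 that shares no member with the 30, showed the same order of animals. Their mean log2 ratio was 3.29, 2.65 and 3.00 in wild-type and 3.90, 3.68, 4.18 and 2.16 in PRA transgenic glands. Here too the first 3 PRA transgenic arrays were above all wild-type arrays and replicate 4 was below them. Of the 17 genes, 16 had a positive log2 fold change, with a median of 0.49, and none had an unadjusted p under 0.05. Without PRA transgenic replicate 4, 12 of 17 were higher at that p, against 6.91% of all probes, and in 11 the genotypes did not overlap, against 11.5%. Chosen after their values were seen, Acly, which makes the acetyl-CoA that both pathways use, differed by 1.22 on the log2 scale (standard error 1.15) with the array and by 2.28 (standard error 0.55) without it. Fasn, the fatty acid synthase, had 0.60 (standard error 0.79) and 1.33 (standard error 0.37). With the array, Cy5 alone gave 0.16 for Fasn and the reference channel gave -0.44. The medians over the 17 genes were 0.54 in Cy5 alone and -0.0041 in the reference channel. Scd1 was the gene with a negative value, at -0.085 (standard error 0.19), and had 0.041 without the array.

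A further list of 23 symbols of cholesterol synthesis, uptake, storage and bile acid formation, in which 1 gene stands under its present and its older name, was not shifted as a whole. Of 20 that could be tested, 8 had a positive and 12 a negative log2 fold change, with a median of -0.02, and none had an unadjusted p under 0.05. Without PRA transgenic replicate 4, 2 genes of this list were lower at an unadjusted p under 0.05, as were 5.43% of all probes, and none was higher. These were Lipa, the lysosomal lipase that frees cholesterol from its esters, at -0.89 (standard error 0.24), and Nceh1, a hydrolase of cholesterol esters, at -0.79 (standard error 0.16).

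**Figure D4:**
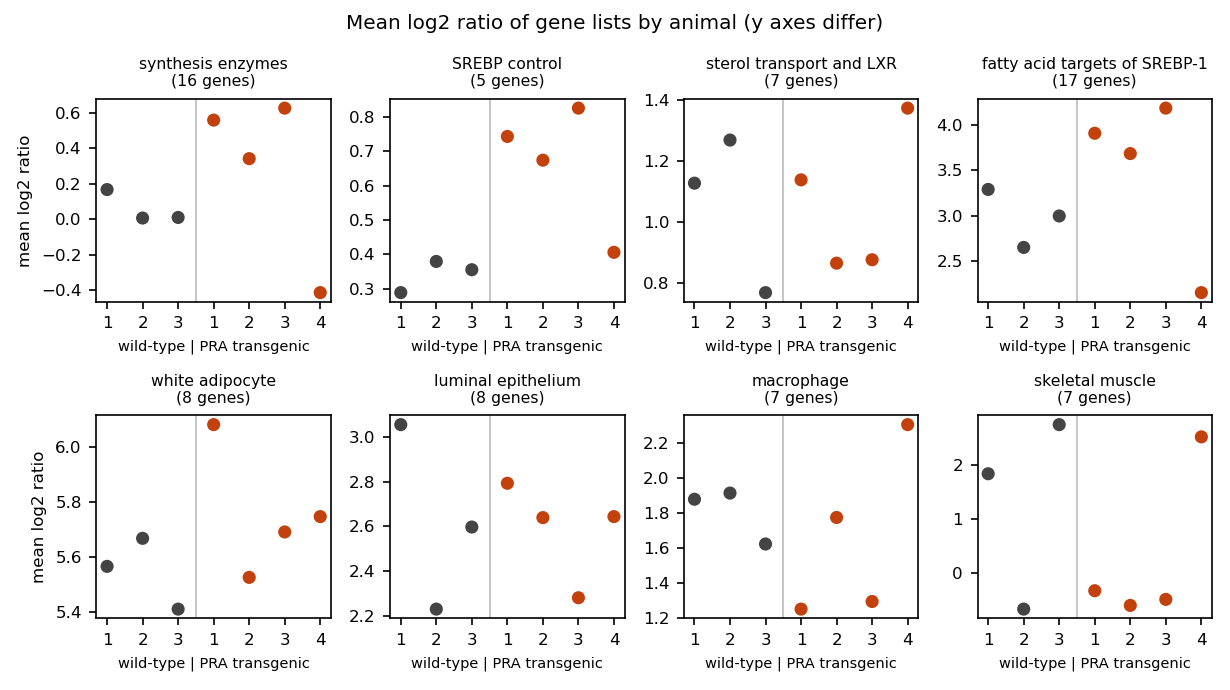
Mean log2 ratio of 8 gene lists on each array, 3 wild-type (grey) and 4 PRA transgenic (orange); the y axes differ. PRA transgenic replicate 4 is the lowest array for the synthesis enzymes and the fatty acid targets of SREBP-1 and the highest for the macrophage list.

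Marker lists of other cell types moved with these animals in part. White adipocyte markers (8 of 8 genes tested) ranged from 5.41 to 5.67 in wild-type and from 5.53 to 6.08 in PRA transgenic glands, and in PRA transgenic replicate 4 their mean was 5.75. In Cy5 alone, scaled as above, it was 5.61, 6.03 and 5.47 in wild-type and 6.13, 5.18, 5.40 and 5.74 in PRA transgenic glands, so replicates 2 and 3 were the lowest arrays. The reference channel ran from 0.05 to 0.36 on wild-type and from -0.33 to 0.07 on PRA transgenic arrays. Brown adipocyte markers (3 of 3) were 5.57, 4.13 and 4.69 in wild-type and 5.61, 4.75, 4.81 and 4.65 in PRA transgenic glands. Of these 3 genes, 1 was well above background in both channels on all arrays, which limits the ratios. In Cy5 alone, scaled as above, their mean was 2.31, 0.71 and 2.71 in wild-type glands. It was 2.42, 2.86, 2.59 and 0.14 in PRA transgenic glands, where replicate 4 was the lowest of all arrays. Their reference signal ran from -4.48 in that array to -1.87 in PRA transgenic replicate 2. Of the brown adipocyte markers, Cidea and Ucp1 were chosen after their values were seen. They had their highest log2 ratio in PRA transgenic replicate 3 and their lowest in wild-type replicate 2. Cidea was 6.33, 5.91 and 6.12 in wild-type and 6.64, 6.43, 6.84 and 5.99 in PRA transgenic glands, and Ucp1 was 5.57, 4.67 and 5.41 and then 5.76, 5.59, 5.77 and 4.90. Without PRA transgenic replicate 4 the genotypes did not overlap for either gene, with PRA transgenic higher, as in 11.5% of all probes. Dio2, the remaining marker of the list, went the other way. Its log2 fold change was -0.16 with that array and -0.22 without it, and its genotypes overlapped in both cases. Luminal markers (8 of 8) ranged from 2.23 to 3.06 and from 2.28 to 2.79. Macrophage markers (7 of 7) ranged from 1.62 to 1.91 in wild-type glands. They were 1.25, 1.77 and 1.29 in PRA transgenic replicates 1 to 3 and 2.31 in replicate 4, the highest array. Skeletal muscle markers (7 of 8) were 1.83, -0.67 and 2.74 in wild-type glands, between -0.61 and -0.33 in PRA transgenic replicates 1 to 3, and 2.51 in replicate 4. Fibroblast markers (5 of 5) reached 2.80 in replicate 4, and ranged from 2.24 to 2.28 over PRA transgenic replicates 1 to 3. They ran from 2.18 to 2.79 in wild-type glands. Among the lymphocyte lists wild-type replicate 1 was the high array, at 1.85 for T cell markers (6 of 6), with the others between -0.58 and 0.16, and at 0.68 for B cell markers (3 of 4), with the others between -2.32 and -1.49. The part of these cell types in the values of the cholesterol genes was not tested.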

How the data were processed

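Total RNA of mammary glands from 3 wild-type and 4 PRA transgenic mice (1 animal per array) was measured on Agilent arrays, labeled with Cy5 against a Cy3 reference, without dye swaps. For each array the deposited file is what Agilent Feature Extraction 12.0 wrote, with processed intensity values whose background had been subtracted and whose dyes had been normalized to each other within each array. They also deposited a table of log2 ratios, found here to equal the ratios of those intensities after subtraction of each probe's median.

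Here log2 ratios, Cy5 over Cy3, were computed from the processed intensities without control and outlier spots and averaged per probe. A probe was kept (34288 of 56605) if its Cy5 signal was well above background throughout at least 1 genotype. Genotypes were compared with limma 3.58.1 in R 4.3.3 (lmFit and eBayes, Benjamini-Hochberg adjustment over all 34288 probes, two-sided), which was tested on simulated data. The kept probe brightest in Cy5 stood for a gene. Gene symbols and mm9 probe positions are those of the files. Promoters came from RefSeq. The members and lists were chosen with earlier results of these data known. All members are named; values of every array are given for those at an unadjusted p under 0.05, those whose genotypes did not overlap, and Hmgcs1, Sqle, Insig1, Srebf1 and Srebf2. Alternatives were other background correction, normalization, filters, channels, tests, weights, pairing and probes, and each array left out.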

Additional observations from a re-analysis of the deposited data

Results flagged for a closer look

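In 7 of 44 groups of 4 PRA transgenic values that were examined, 1 array lay farther from its nearest neighbour, as a share of the whole range, than the critical value at the 95% level for 4 values. Chance alone gives about 1 in 20 groups, or 2.2. In each of the 7, that array was PRA transgenic replicate 4, and the groups share their arrays. It was low for Mvd (gap over range 0.845), Fdps (0.840), Nsdhl (0.880) and Stard4 (0.876). It was high for Npc1 (0.853), for the mean of the skeletal muscle markers (0.913) and for the mean of the fibroblast markers (0.934).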

How the results depend on the processing

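The 28 genes and the counts and medians over them were recomputed under 18 alternatives. No gene passed the adjusted threshold under any of them. Of 504 values of single genes, 483 kept their direction and 21 changed it. Many of the 483 could not have changed. The t-test and the intensity trend alter only the spread, the deposited table holds the same ratios, and the other filters picked the same probes. The block by replicate number repeats the fit without PRA transgenic replicate 4. The count of 483 is therefore not a count of separate checks. With 1 array left out in turn, the count of genes at an unadjusted p under 0.05 ran from 0 to 8, that with 1.5-fold from 0 to 7, and that of genes whose genotypes did not overlap from 1 to 10, each highest without PRA transgenic replicate 4. It was 0 without wild-type replicate 1 or 3. The methods' t-test gave 2 genes at an unadjusted p under 0.05, Insig1 and Srebf2 in place of Srebf1, of which 1 was past 1.5-fold. No gene's genotypes were apart in Cy5 alone or when each gene was given the median of its probes. With the replicate number as a block (replicate block), 6 genes passed the unadjusted p, all by 1.5-fold, where 9.83% of all probes passed that p. PRA transgenic replicate 4 has no partner, so this fit also leaves it out, and its log2 fold changes equal those without that array, where 8 genes passed. The numbers share no litter or batch in the labels, and the deviations of same-numbered arrays correlated at 0.10, -0.30 and 0.04. Those of arrays with different numbers ran from -0.30 to 0.38. The samples were therefore not treated as pairs, and so few correlations cannot show whether they are. A fit with slide as a block was not run, since there was 1 slide.

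Signs changed for genes with small log2 fold changes, among them Sqle and Tm7sf2, each at 0.17 in the main fit. Sc5d was -0.013 with normexp and loess and -0.060 in Cy5 alone, where Insig2 was -0.0081. Abca1 was 0.024 after quantile normalization and 0.070 with the median of its probes. With arrays left out in turn, the log2 fold change ranged from -0.35 to 0.11 for Abca1, -0.19 to 0.19 for Sc5d, -0.079 to 0.41 for Idi1, -0.10 to 0.25 for Cyp51, -0.0039 to 0.085 for Ebp, -0.0093 to 0.27 for Fdft1, -0.0035 to 0.14 for Nr1h2, -0.17 to 0.047 for Scap, -0.035 to 0.48 for Sqle, -0.085 to 0.16 for Stard4 and -0.16 to 0.54 for Tm7sf2. The sign of these genes is therefore not settled by these arrays. The median of the transport and LXR genes ran from -0.038 to 0.12. The cause of these shifts was not tested. Dim spots limit the second probes of Nsdhl and Npc1.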
